A study of Mus musculus with 18 samples.

Results

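Erythroid genes were read in 18 whole-ovary RNA libraries through 9 genes of 30172 listed: the α-globins Hba-a1 and Hba-a2, the β-globins Hbb-bs and Hbb-bt, the globin chaperone Ahsp, the heme synthesis enzyme Alas2, the membrane exchanger Slc4a1, the carbonic anhydrase Car2 and the claudin Cldn13. The 9 genes were selected on their measured levels in these same libraries, with the diet differences at each day already seen. Their levels and fold changes are therefore a description and carry no test. All 9 genes were found in the files.

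Ovaries came from wild type C57BL/6J female offspring (F1) at postnatal day 3, 7 or 21 (Pd3, Pd7 or Pd21), which is also their age. The dams of F1-HHcy ate a high-methionine diet (3% methionine) to raise their homocysteine, from 4 weeks before mating by the labels through pregnancy and lactation, and the dams of F1-Control ate normal chow by the labels (the sources differ on this time and on the control diet); the pups themselves were not treated. Each of the 6 groups of diet and day held 3 libraries, and whether a library came from 1 pup or from pooled pups is not given in the sources used here. By the labels, batch 1 held the libraries of the younger ages (Pd3 and Pd7) and batch 2 those of Pd21, where age and batch cannot be told apart. Between 33630641 and 39399281 fragments lay on genes in each library, and levels are in FPKM, which divides the fragments of a gene by its length and by the fragments on all genes of the library.

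Red blood cells form from nucleated erythroblasts, which make hemoglobin from α-globin, β-globin and heme, build a membrane skeleton around the anion exchanger encoded by Slc4a1, and then lose the nucleus. The young cell that enters the blood, the reticulocyte, still carries globin transcripts for a time, because globin messenger RNA is unusually stable. Around birth the mouse forms red cells in liver, spleen and marrow, and the ovary is not a site of their formation, so in whole ovary these transcripts are known as a sign of blood in the tissue.

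The globin genes lie in a pair of clusters. In the GENCODE annotation of GRCm38, Hba-a1 spans chr11:32283511-32284465 and Hba-a2 spans chr11:32296489-32297298, both on the plus strand. Hbb-bs spans chr7:103826534-103828096 and Hbb-bt spans chr7:103812524-103813996, both on the minus strand. The annotation also held Slc4a1 (chr11:102348824-102366203), Car2 (chr3:14886273-14900770), Alas2 (chrX:150547375-150570638) and Cldn13 (chr5:134914249-134915526), that is 8 of the 9 genes. The coding sequences of Hba-a1 and Hba-a2 are 426 bases long and differ at 1 base, and those of Hbb-bs and Hbb-bt are 441 bases long and also differ at 1 base. How fragments were split within each near-identical pair is therefore uncertain, and the sum of a pair is firmer than either gene alone.

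Promoters were looked up for all 9 genes and are shown where an entry was found. Their part in the levels was not tested. RefSeq (GRCm38.p6) gave a promoter for 5 of the 9 genes, and the last 120 bases before each RefSeq start follow, 5′ to 3′ on the gene's strand: Hba-a1 (chr11:32283552-32283671, plus), Hba-a2 (chr11:32296372-32296491, plus), Hbb-bs (chr7:103827929-103828048, minus), Hbb-bt (chr7:103813924-103814043, minus) and Alas2 (chrX:150547297-150547416, plus). Capitals mark letters searched on either strand: the CCAAT box (read ATTGG on the other strand), the box CACCC (read GGGTG on the other strand), the core GATAA (read TTATC on the other strand) and the box TATAA (read TTATA on the other strand).
Hba-a1: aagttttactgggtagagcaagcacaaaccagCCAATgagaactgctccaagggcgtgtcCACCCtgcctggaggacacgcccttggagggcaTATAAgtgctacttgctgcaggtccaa
Hba-a2: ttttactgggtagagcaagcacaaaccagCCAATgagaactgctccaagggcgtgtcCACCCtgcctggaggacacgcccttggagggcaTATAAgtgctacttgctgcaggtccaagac
Hbb-bs: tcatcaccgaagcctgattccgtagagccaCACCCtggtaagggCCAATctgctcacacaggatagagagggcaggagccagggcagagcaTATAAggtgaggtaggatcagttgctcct
Hbb-bt: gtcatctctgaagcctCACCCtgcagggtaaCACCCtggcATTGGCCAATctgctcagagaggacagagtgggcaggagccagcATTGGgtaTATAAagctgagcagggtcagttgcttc
Alas2: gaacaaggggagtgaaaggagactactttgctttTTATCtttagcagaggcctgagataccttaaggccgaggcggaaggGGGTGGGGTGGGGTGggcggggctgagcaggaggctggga
All 4 globin windows hold CCAAT as well as CACCC and also TATAA, with 3 copies of CCAAT and 2 of CACCC in Hbb-bt. The Alas2 window holds CACCC 3 times in a run and GATAA once, and neither CCAAT nor the box TATAA. Among 32851 promoter windows of the same length, CCAAT was found in 21.3%, CACCC in 31.7%, GATAA in 10.5% and TATAA in 11.8%. The motifs were chosen after the sequences were read, so the matches cannot be weighed against these shares. A match is a description and not a binding site. The windows of Hba-a1 and Hba-a2 are identical over 117 bases at a shift of 3, whereas those of Hbb-bs and Hbb-bt share 88 of 119 aligned bases (73.9%).

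In 3 libraries the levels stood apart from the other libraries of their group. F1-Control Pd7 replicate 1 carried several times more of each of the 9 genes than the other F1-Control Pd7 libraries, and F1-HHcy Pd3 replicate 3 carried more Ahsp, Slc4a1, Car2 and Cldn13 than the other F1-HHcy Pd3 libraries. F1-HHcy Pd21 replicate 3 carried more of the 4 globins and of Alas2 than the other F1-HHcy Pd21 libraries, with a summed globin level of 990 FPKM against 209 and 157 FPKM. Values without these libraries are given beside the main comparisons.

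Hbb-bs, the more abundant β-globin, stood at 5804, 3278 and 2164 FPKM in F1-Control replicates 1 to 3 at Pd3 and at 510.3, 620.2 and 411 FPKM in F1-HHcy. At Pd7 it stood at 2887, 899.6 and 574 FPKM in F1-Control and at 184, 319 and 261 FPKM in F1-HHcy. At Pd21 the values were 67.0, 294 and 164 FPKM in F1-Control and 123, 99.1 and 544 FPKM in F1-HHcy. Every F1-Control library thus lay above every F1-HHcy library at Pd3 and at Pd7, while at Pd21 the diets overlapped and the highest library was an F1-HHcy one. Hba-a1, the more abundant α-globin, followed the same order: 3059.5, 1774 and 917 FPKM in F1-Control against 201, 325 and 264 FPKM in F1-HHcy at Pd3. At Pd7 Hba-a1 stood at 1588, 385 and 212 FPKM in F1-Control and at 59.3, 104 and 103 FPKM in F1-HHcy. At Pd21 it stood at 21.5, 148 and 48.7 FPKM in F1-Control and at 47.9, 27.3 and 232 FPKM in F1-HHcy. The libraries highest at Pd21 for 1 globin were again highest for the other: F1-HHcy replicate 3 and F1-Control replicate 2. Hba-a2 ranged from 10.2 to 848 FPKM and Hbb-bt from 8.64 to 1306 FPKM over the 18 libraries, with F1-Control above F1-HHcy in all libraries of Pd3 and Pd7.

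Summed over both α- and both β-globins, the level was 7028 ± 3654 FPKM (SD, n = 3) in F1-Control and 908 ± 171 FPKM in F1-HHcy at Pd3. As a share of all fragments on genes, the 4 globins took 0.672%, 0.378% and 0.236% in the F1-Control libraries of Pd3 and 0.0525%, 0.0672% and 0.0467% in the F1-HHcy libraries. At Pd7 they took 0.346%, 0.0947% and 0.0563% in F1-Control, against 0.0175%, 0.0307% and 0.0261% in F1-HHcy. At Pd21 the shares were 0.00660%, 0.0334% and 0.0165% in F1-Control and 0.0128%, 0.00969% and 0.0604% in F1-HHcy. The globin share thus stayed under 1% of fragments in all 18 libraries, and the F1-Control spread at Pd3 and Pd7 was wide beside that of F1-HHcy. In bulk tissue, fewer red cells and less RNA per red cell cannot be told apart.

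The proportion of β- to α-globin FPKM moved far less than the sum. The ratio lay between 1.57 and 2.88 in all 18 libraries, with a mean of 1.88 ± 0.261 (SD, n = 3) in F1-Control and 1.88 ± 0.294 in F1-HHcy at Pd3. The ratio of Hbb-bs to Hbb-bt was 4.44, 5.52 and 4.66 in F1-Control at Pd3 and 6.88, 6.13 and 6.97 in F1-HHcy, so that the diets did not overlap on that day. The ratio of Hba-a1 to Hba-a2 lay between 1.90 and 3.61 in 16 libraries, and at 6.13 and 7.49 in F1-HHcy Pd3 replicates 2 and 3. Both ratios rest on how fragments were split within a near-identical pair.

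Alas2, the X-linked enzyme that starts heme synthesis in erythroid cells, stood at 90.7, 66.6 and 41.6 FPKM in F1-Control at Pd3 and at 6.03, 7.46 and 8.35 FPKM in F1-HHcy. At Pd7 Alas2 stood at 42.9, 8.82 and 8.78 FPKM in F1-Control and at 2.40, 3.45 and 5.07 FPKM in F1-HHcy. At Pd21 it stood at 1.06, 4.77 and 1.86 FPKM in F1-Control and at 2.42, 1.86 and 7.07 FPKM in F1-HHcy. Alas2 therefore ordered the libraries much as the globins did, with no overlap at Pd3 or Pd7 and overlap at Pd21.

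Ahsp, which binds free α-globin and keeps it from precipitating, stood at 652, 312 and 116 FPKM in F1-Control at Pd3 and at 2.64, 4.08 and 17.6 FPKM in F1-HHcy. At Pd7 Ahsp stood at 198, 5.75 and 2.56 FPKM in F1-Control and at 0.953, 1.93 and 1.10 FPKM in F1-HHcy. At Pd21 Ahsp stood between 2.30 and 5.43 FPKM in all 6 libraries. The high libraries were the 3 of F1-Control at Pd3 and F1-Control Pd7 replicate 1, with F1-HHcy Pd3 replicate 3 next and every other library under 6 FPKM. Slc4a1, the chloride and bicarbonate exchanger of the red cell membrane, stood at 73.9, 55.2 and 26.6 FPKM in F1-Control at Pd3 and at 0.121, 0.135 and 3.77 FPKM in F1-HHcy. At Pd7 Slc4a1 stood at 31.1, 0.317 and 0.228 FPKM in F1-Control and at 0.0580, 0.0392 and 0.0356 FPKM in F1-HHcy, where it rested on 9, 6 and 6 fragments. At Pd21 it stayed at or below 0.351 FPKM. The same 5 libraries as for Ahsp held more than 1 FPKM of Slc4a1, and no other library did.

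Car2, a cytosolic carbonic anhydrase of red cells that many other tissues also make, stood at 282, 138 and 66.1 FPKM in F1-Control at Pd3 and at 1.69, 2.23 and 8.21 FPKM in F1-HHcy. At Pd7 Car2 stood at 90.2, 2.40 and 2.60 FPKM in F1-Control and at 0.994, 1.62 and 1.61 FPKM in F1-HHcy. At Pd21 it stood at 3.67, 2.53 and 23.4 FPKM in F1-Control and at 2.86, 1.27 and 1.62 FPKM in F1-HHcy. The 23.4 FPKM of F1-Control Pd21 replicate 3 had no counterpart among the globins of that library. Cldn13, a rodent claudin, stood at 29.4, 18.7 and 7.80 FPKM in F1-Control at Pd3, at 0 in F1-HHcy replicates 1 and 2, and at 0.515 FPKM (19 fragments) in replicate 3. At Pd7 Cldn13 stood at 9.50 FPKM (363 fragments) in F1-Control replicate 1, at 1 fragment in replicate 2 and at 0 in the other 4 libraries. At Pd21 Cldn13 was at 0 in all 6 libraries, where a count of 0 allows up to 3 fragments. As the plot of levels by library shows, Cldn13 was the member most nearly absent outside F1-Control Pd3 and F1-Control Pd7 replicate 1.

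**Figure D1:**
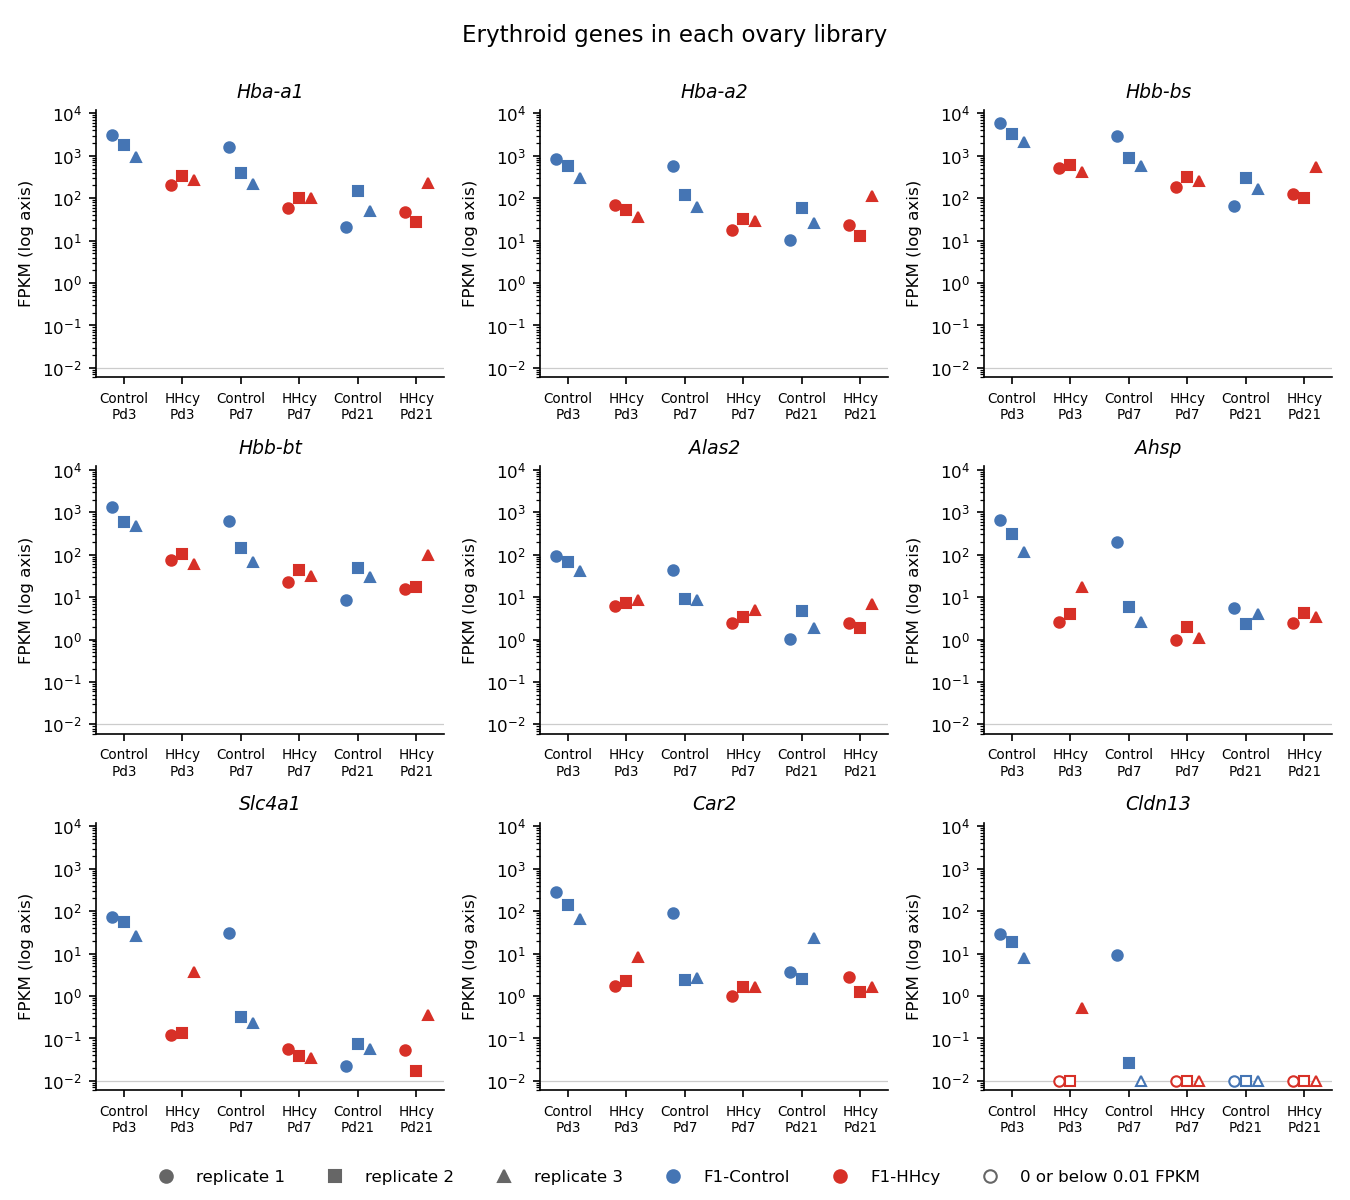
Level of each of the 9 genes (vertical axis, FPKM on a log axis) in the 18 libraries, by day and diet (horizontal axis), where each point is a library, its shape the replicate and an open point a value of 0 or below 0.01 FPKM. Hbb-bs falls from between 2164 and 5804 FPKM in F1-Control at Pd3 to between 411 and 620.2 FPKM in F1-HHcy, and the diets overlap for all 9 genes at Pd21.

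The comparison of the diets at Pd3 asked how maternal diet changed the ovary at that age. The log2 fold changes below, F1-HHcy against F1-Control, were taken on log2(FPKM + 1), which understates the change of a gene with low values. For the α-globins they were -2.72 for Hba-a1 and -3.35 for Hba-a2, and for the β-globins -2.77 for Hbb-bs and -3.21 for Hbb-bt. Alas2 changed by -2.96, close to the globins. Ahsp changed by -5.36, Slc4a1 by -4.74, Car2 by -5.00 and Cldn13 by -3.92, more than any globin. On the FPKM scale, the mean of F1-Control over that of F1-HHcy was 7.27 for Hba-a1, 7.29 for Hbb-bs and 9.10 for Alas2, against 44.3 for Ahsp, 38.6 for Slc4a1 and 40.1 for Car2. Without F1-HHcy replicate 3 this ratio of means was 107 for Ahsp, 405 for Slc4a1 and 82.7 for Car2, and 6.63 for Hbb-bs. All 9 genes passed the filter at Pd3 (1 FPKM or more in 3 or more of a day's 6 libraries). Every F1-HHcy library was below every F1-Control library for 9 of 9 genes, beside 16.1% of all 13277 genes tested. The genes were chosen on this contrast, so nothing is read from that count. Without F1-HHcy replicate 3, the log2 fold change was -6.06 for Ahsp, -5.43 for Slc4a1, -5.55 for Car2 and -4.12 for Cldn13, while that of Hbb-bs was -2.62.

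At Pd7, 8 of 9 genes had no overlap between the diets and lower values in F1-HHcy, beside 19.5% of all 13299 genes tested; Cldn13 shared values of 0. Slc4a1 and Cldn13 did not pass the filter on that day, which left 7 genes. The size of the difference rested on F1-Control replicate 1. The log2 fold change of Hbb-bs was -2.20 with that library and -1.53 without it, and that of Hba-a1 was -2.55 with it and -1.72 without it. Alas2 changed by -1.84 with the library and by -1.12 without it. Ahsp changed by -2.88 and -1.10, and Car2 by -2.12 and -0.55. For Slc4a1 the fold change went from -1.84 to -0.28 and for Cldn13 from -1.14 to -0.02. Without replicate 1, on the scale of log2(FPKM + 1), the globins and Alas2 kept the larger part of their difference and the other 4 members did not. On the FPKM scale the mean of F1-Control over that of F1-HHcy without that library was 2.89 for Hbb-bs, 2.42 for Alas2, 3.13 for Ahsp, 1.78 for Car2 and 6.16 for Slc4a1, so Slc4a1, at low levels, kept a larger ratio than Hbb-bs. The order of the members by size of change was not that of Pd3 with or without this library. The median over the 9 genes was -2.20 with the library and -1.12 without it.

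At Pd21 the diets overlapped for all 9 genes, beside 8.61% of all 13350 genes tested that had no overlap and lower values in F1-HHcy. The same 7 genes passed the filter as at Pd7. The log2 fold changes were 0.32 for Hba-a1, 0.39 for Hba-a2, 0.34 for Hbb-bs, 0.31 for Hbb-bt and 0.41 for Alas2, all smaller than the spread between libraries. The sign of the globin values turned when either F1-HHcy replicate 3 or F1-Control replicate 1 was left out. Without F1-HHcy replicate 3 the log2 fold change was -0.42 for Hbb-bs, -0.56 for Hba-a1 and -0.05 for Alas2. Without F1-Control replicate 1 it was -0.22 for Hbb-bs and -0.33 for Hba-a1. The highest values with a single library left out were 0.84 for Hbb-bs and 1.04 for Hba-a1. Car2 changed by -1.38 with all 6 libraries and by -0.52 without F1-Control replicate 3.

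Set against the globins of the same library, the other members fell into separate patterns. Per 1000 FPKM of summed globin, Alas2 lay between 5.70 and 11.9 FPKM in all 18 libraries, across a range of globin sums from 107 to 11018 FPKM. The diet and age differences of Alas2 were thus almost gone on this scale. Slc4a1 per 1000 FPKM of globin was 6.70, 8.87 and 6.91 in F1-Control at Pd3 and 0.142, 0.123 and 4.90 in F1-HHcy. At Pd7 this ratio was 5.48, 0.205 and 0.249 in F1-Control and 0.204, 0.0787 and 0.0838 in F1-HHcy. At Pd21 it lay between 0.109 and 0.355. In the plot of levels per globin, the libraries fell on either side of a wide gap for Slc4a1, with the 3 of F1-Control Pd3, F1-Control Pd7 replicate 1 and F1-HHcy Pd3 replicate 3 above it. F1-HHcy Pd3 replicate 3 had the lowest globin sum of its group, 769.7 FPKM beside 856 and 1099.9, and the highest Slc4a1 of that group per globin.

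Cldn13 split the libraries at the same place, at 2.67, 3.00 and 2.03 per 1000 FPKM of globin in F1-Control Pd3, 1.67 in F1-Control Pd7 replicate 1, 0.669 in F1-HHcy Pd3 replicate 3 and at most 0.0171 elsewhere. Ahsp did so less fully. At Pd3 its ratio was 59.2, 50.2 and 30.1 in F1-Control and 3.08, 3.71 and 22.9 in F1-HHcy. At Pd7 it was 34.8, 3.72 and 2.79 in F1-Control and between 2.58 and 3.88 in F1-HHcy. At Pd21, where the globins are low, the Ahsp ratio lay between 3.39 and 50.6, so that it no longer split the libraries as Slc4a1 did. The Car2 ratio reached 87.4 in F1-Control Pd21 replicate 3, above its values of 17.2 to 25.6 in F1-Control Pd3.

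**Figure D2:**
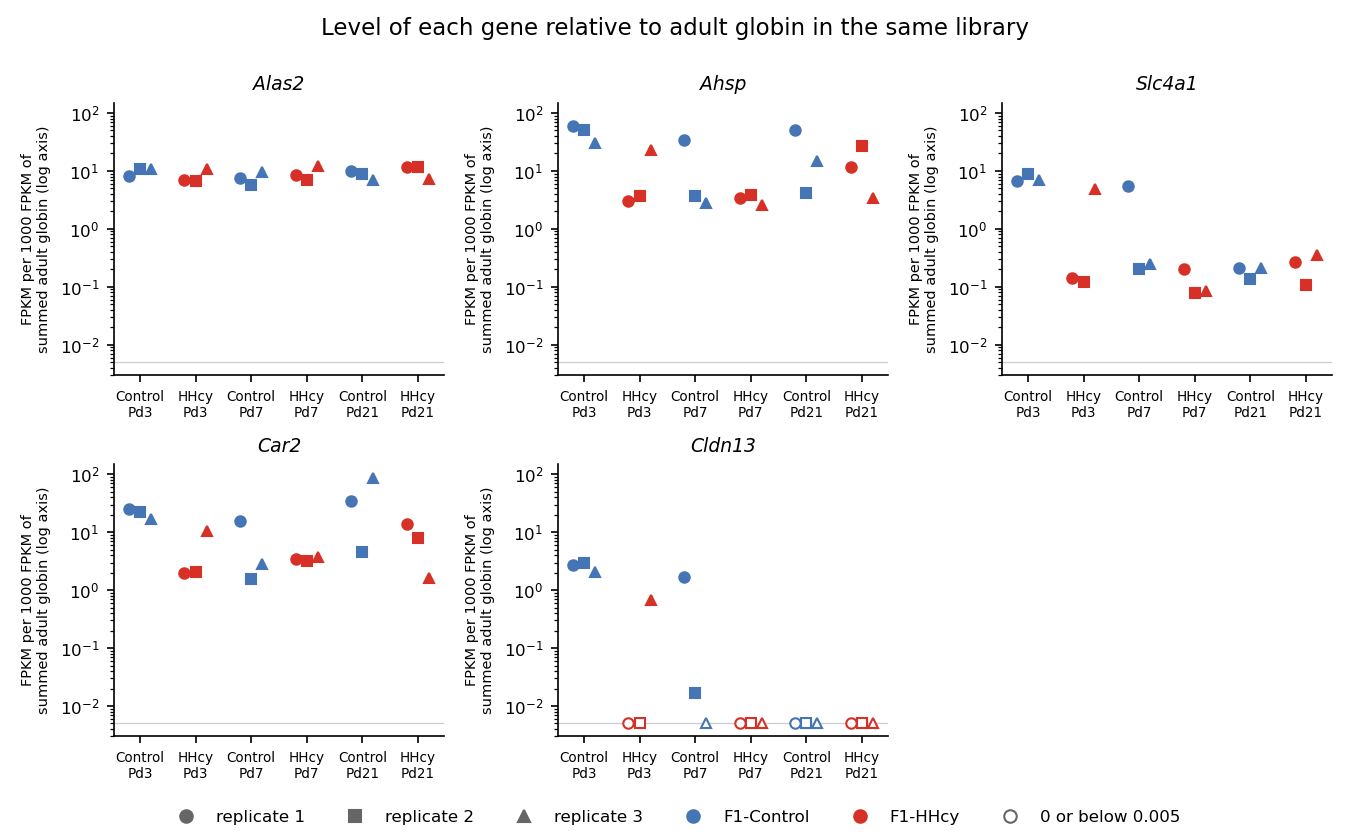
Level of erythroid genes per 1000 FPKM of summed adult globin (vertical axis, log axis) in each library by day and diet (horizontal axis), where each point is a library and an open point a value of 0 or below 0.005. Alas2 stays between 5.70 and 11.9 throughout, while Slc4a1 is at 4.90 or above in 5 libraries and at 0.355 or below in the other 13.

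From Pd3 to Pd7, both ages in batch 1, levels fell in both diets, but the groups separated differently. In F1-HHcy, 8 of 9 genes had every Pd7 library below every Pd3 library, beside 16.4% of all 14607 genes tested in the model of 18 libraries. Mean Hbb-bs fell from 514 ± 105 to 255 ± 67.6 FPKM (SD, n = 3). In F1-Control, 0 of 9 genes separated the ages, beside 21.6% of all genes, since Pd7 replicate 1 lay within the Pd3 range. Mean Hbb-bs there went from 3749 ± 1865 to 1454 ± 1252 FPKM. The log2 changes in F1-Control were between -1.59 for Hbb-bs and -4.10 for Ahsp. Without Pd7 replicate 1 they were between -2.26 for Hbb-bs and -5.88 for Ahsp, and 9 of 9 genes then separated the ages, beside 30.1% of all 14565 genes tested. In F1-HHcy the changes were between -0.20 for Cldn13 and -1.61 for Ahsp. Without Pd3 replicate 3 they were between 0 for Cldn13 and -1.56 for Hba-a1, Ahsp changed by -0.91 and Slc4a1 by -0.11, and the same 8 genes separated the ages, beside 22.7% of all 14541 genes tested.

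Ordered by mean level, Hbb-bs was highest in all 6 groups, followed by Hba-a1. In F1-Control at Pd3, Hbb-bt (788 ± 453 FPKM, SD, n = 3), Hba-a2 (575 ± 274) and Ahsp (359.8 ± 271) came next. Their means lay within the spread between libraries, but each library held them in this order. Car2 (162 ± 110.2), Alas2 (66.3 ± 24.6), Slc4a1 (51.9 ± 23.8) and Cldn13 (18.6 ± 10.8) followed, with Alas2 above Slc4a1 in each library. In F1-HHcy at Pd3 the order changed below the globins: Ahsp (8.12 ± 8.27) and Alas2 (7.28 ± 1.17) were alike within their spread, ahead of Car2 (4.04 ± 3.62) and Slc4a1 (1.34 ± 2.11). These means rested on replicate 3. Without it Alas2 (6.75 FPKM) came first of these, above Ahsp (3.36) in both other libraries, followed by Car2 (1.96) and Slc4a1 (0.128).

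Erythroid genes outside the members were taken from 6 lists with 71 genes in the files: other globins, heme synthesis, iron uptake and storage, membrane and skeleton, transcription factors with the erythropoietin receptor, and maturation with red cell enzymes. They were tested with limma within each day, and a call needed both a log2 fold change beyond 0.58 and a p under 0.05 before adjustment. At Pd3, 41 of the 62 genes that passed the filter were called lower in F1-HHcy, beside 4.74% of all genes, and 0 were called higher, beside 5.0% of all genes. After Benjamini-Hochberg adjustment over all genes in limma, 33 of the 62 were lower, beside 1.26% of all genes, and 0 higher, beside 1.58%. The median log2 fold change of the 62 was -1.06, against -0.03 for all genes. Of the 62, 16 reached 1 FPKM in F1-Control libraries alone, Klf1 and Hbq1b among them, and passed the filter only because they were high there. A lower value in F1-HHcy was thus fixed for them, and the counts of 41 and 33 include them. Of the 40 genes at 1 FPKM or more in all 6 libraries, 19 were called lower, beside 3.53% of such genes among all, with a median of -0.53. The count of 41 fell to 23, 25 and 27 when F1-Control replicate 1, 2 or 3 was left out. In these settings the 16 genes could not reach 1 FPKM in 3 libraries and were not tested, so part of the fall came from the filter. The count was 40 of 62 without F1-HHcy replicate 3, beside 1028 of all 13049 genes.

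By list and with all 62 genes, as in the plot of fold changes by list and day, the membrane and skeleton genes were lower in 14 of 17 (median -1.71), the transcription factors and receptor in 7 of 9 (median -1.53), maturation and enzymes in 9 of 16 (median -0.91), heme synthesis in 8 of 11 (median -0.66) and iron in 2 of 8 (median -0.29). Many genes of the membrane and factor lists are made mainly in blood-forming cells, and those of the heme and iron lists in all tissues. The part of this in the list medians was not tested, and the medians include genes whose direction the filter fixed. Klf1, a transcription factor that activates β-globin, stood at 10.9, 7.60 and 2.97 FPKM in F1-Control and at 0.0561, 0.208 and 0.413 FPKM in F1-HHcy. Its log2 fold change was -2.61 (SE 0.373), with a limma Benjamini-Hochberg adjusted p of 0.0216 and all 3 F1-HHcy libraries below all F1-Control ones, though its way through the filter fixed the direction. Gata1, an X-linked erythroid and megakaryocytic factor whose motif core GATAA was searched above, stood at 11.4, 11.7 and 10.6 FPKM against 2.83, 4.14 and 1.60 FPKM (log2 fold change -1.72, limma adjusted p 0.0203). The factor Ldb1, which acts in many tissues, overlapped between the diets, at 30.1, 33.3 and 31.3 against 27.1, 28.2 and 32.2 FPKM. Lmo2, which joins the complex of Gata1 and Ldb1 and is also made in vessels, stood at 16.0, 17.2 and 7.12 against 3.02, 3.39 and 3.88 FPKM (log2 fold change -1.62, limma adjusted p 0.0386). The 2 tested genes of this list that were not called were Ldb1 and Zfpm1, a cofactor of Gata1 (log2 fold change -0.49, named after its values were seen).

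In the iron and heme lists, Slc25a37, which carries iron into mitochondria, stood at 41.4, 41.5 and 27.9 FPKM in F1-Control and at 11.8, 11.3 and 12.3 FPKM in F1-HHcy at Pd3 (log2 fold change -1.55, limma adjusted p 0.0142). The transferrin receptor Tfrc, which takes up iron, stood at 42.2, 40.0 and 26.2 FPKM against 15.7, 15.8 and 13.4 FPKM (log2 fold change -1.19, limma adjusted p 0.0267). The heme enzyme Cpox changed by -0.9995. These genes kept a floor of at least 5 FPKM in every F1-HHcy library at Pd3, unlike Slc4a1. The ferritin genes Fth1 and Ftl1, which store iron in all cells, changed by -0.36 and -0.34 and were not called. Among globins outside the members, Hbq1b stood at 10.02, 3.77 and 4.04 FPKM in F1-Control and at 0.148, 0.336 and 0.116 FPKM in F1-HHcy at Pd3. Of 9 other globins listed, 4 had a row in the files, none of them an embryonic α-globin. The embryonic β-globins Hbb-y and Hbb-bh1 were at or near 0 in every library, at most 0.309 and 0.187 FPKM, and Hbq1a was at most 0.336 FPKM.

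At Pd7, 8 of the 43 genes tested were called lower, beside 7.35% of all genes, and 1 was called higher, beside 9.06% of all genes. The median log2 fold change was -0.27, against -0.00 for all genes. Without F1-Control replicate 1, 4 of 41 were lower, beside 7.66% of all genes, and 2 higher, beside 11.6%, with a median of -0.11. The lower genes included Tmem14c, Tfrc, Ftl1, Gata1, Gpx1, Ube2l6 and Isg20, and the higher one was Bcl11a. Isg20 reached 1 FPKM in the F1-Control libraries of that day alone, which fixed its direction, and of the 40 genes at 1 FPKM or more in all 6 libraries 7 were called lower, beside 6.60% of such genes among all. Tmem14c, a mitochondrial protein of heme synthesis, stood at 118, 156 and 96.1 FPKM in F1-Control and at 72.4, 65.9 and 71.6 FPKM in F1-HHcy (log2 fold change -0.78, limma Benjamini-Hochberg adjusted p 0.0260). Without replicate 1 the log2 fold change of Tmem14c was -0.80, so the size of its change did not rest on that library, while its limma adjusted p was 0.0578. Ube2l6, an enzyme that attaches ubiquitin-like ISG15, stood at 61.5, 41.0 and 24.9 against 19.3, 21.4 and 14.0 FPKM (log2 fold change -1.11, limma adjusted p 0.0365). Bcl11a, a factor that represses embryonic globins and is also made outside the blood, stood at 0.691, 0.747 and 1.503 against 2.14, 1.91 and 3.57 FPKM (log2 fold change 0.83, limma adjusted p 0.0403). It reached 1 FPKM in 1 F1-Control library and so passed the filter through F1-HHcy, where it is high. Of the 40 genes at 1 FPKM or more in all 6 libraries, 0 were called higher. Tmem14c, Ube2l6 and Bcl11a were the erythroid genes outside the members that passed adjustment at Pd7. That is 2 lower and 1 higher of 43, beside 729 lower and 750 higher of all 13299 genes. Leaving out F1-Control replicate 1 gave a log2 fold change of -0.80 for Ube2l6 (limma adjusted p 0.0766) and 0.73 for Bcl11a (limma adjusted p 0.0917). Then 0 of 41 passed, beside 398 lower and 561 higher of all 13086 genes, against 4 lower and 2 higher of the 41 before adjustment. Of the membrane and skeleton list, 5 of 17 genes passed the filter at Pd7 and 0 were called by limma at the unadjusted threshold.

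At Pd21, 1 of the 44 genes tested was called lower, beside 5.06% of all genes, and 0 were called higher, beside 0.0824% of all genes. The lower gene was Isg20, an exonuclease, at 1.58, 1.13 and 3.03 FPKM in F1-Control and 0.629, 0.291 and 0.830 FPKM in F1-HHcy (log2 fold change -0.84, limma Benjamini-Hochberg adjusted p 0.302). Isg20 reached 1 FPKM in the 3 F1-Control libraries alone, so that without any of them it did not pass the filter and was not tested. The median over the 44 genes was -0.03, against -0.01 for all genes.

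**Figure D3:**
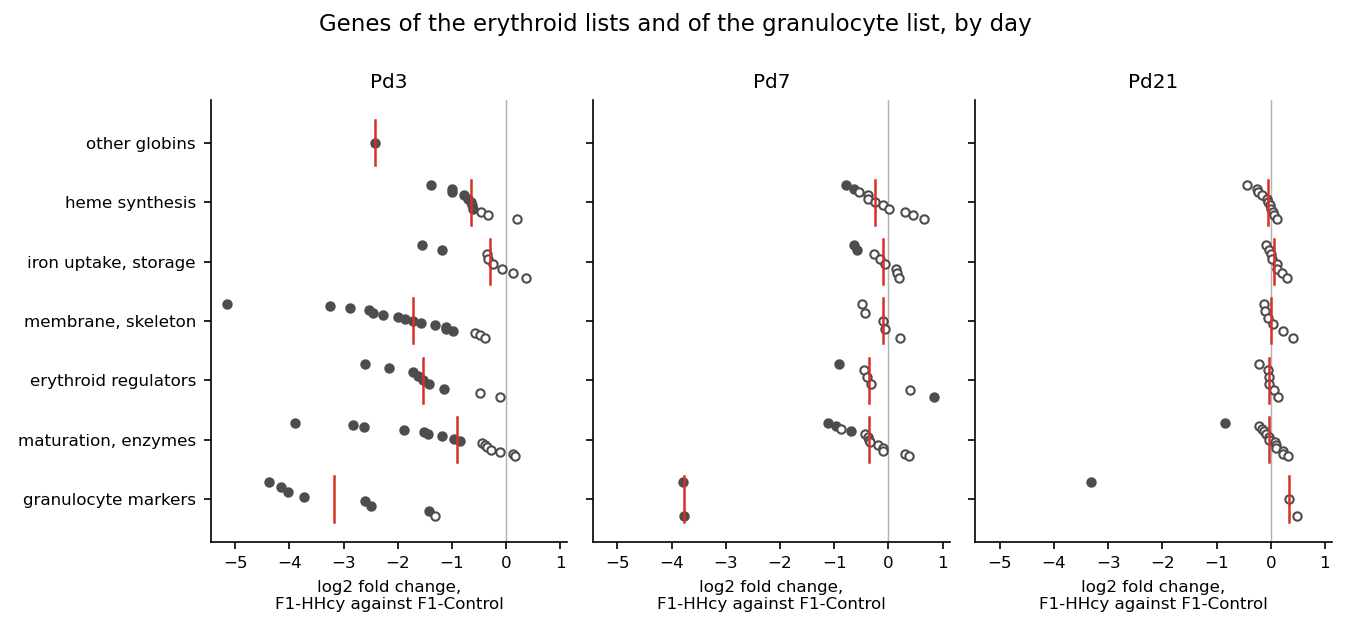
Log2 fold change of F1-HHcy against F1-Control (horizontal axis) for each tested gene of the erythroid lists outside the members and of the granulocyte list (vertical axis), by day, where each point is a gene, filled if called, and each red line the median of a list. The median over the erythroid lists is -1.06 at Pd3 (62 genes), -0.27 at Pd7 (43 genes) and -0.03 at Pd21 (44 genes). Over genes at 1 FPKM or more in all 6 libraries of a day it is -0.53, -0.30 and -0.03.

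The age comparison from Pd3 to Pd7 asked how the ovary changed over that interval in each diet. In F1-Control, 42 of 65 erythroid genes outside the members were called lower at Pd7, beside 6.89% of all genes, and 0 higher, beside 6.76%. Of the 41 at 1 FPKM or more in all 6 F1-Control libraries of both ages, 19 were called lower, beside 6.33% of such genes among all. Without F1-Control Pd7 replicate 1 there were 43 lower, beside 10.5% of all genes, and 1 higher of 64, beside 7.52%. In F1-HHcy, 3 of 65 were called lower, beside 6.03% of all genes, and 1 higher, beside 5.76%, and without F1-HHcy Pd3 replicate 3 there were 2 lower, beside 3.91% of all genes, and 0 higher, beside 3.51%. Of the 39 at 1 FPKM or more in all 6 F1-HHcy libraries, 2 were called lower, beside 609 of 11996 such genes among all. The medians were -0.87 in F1-Control and -0.05 in F1-HHcy, or -0.55 and -0.07 over the genes at 1 FPKM or more in all 6 libraries. Genes already under 1 FPKM in F1-HHcy at Pd3 can fall little on the scale of log2(FPKM + 1). Whether the diets differed in this change is the same question as whether the diet effect differed between Pd3 and Pd7, and it was tested in limma as an interaction. At an adjusted p under 0.05, 0 of 65 genes passed, beside 0.411% of all genes, and 35 of 65 had an unadjusted p under 0.05, beside 13.8% of all genes. Without F1-Control Pd7 replicate 1, 23 of 64 passed after adjustment, all with a higher diet effect at Pd7 than at Pd3, beside 0.831% of all genes. Without F1-HHcy Pd3 replicate 3, 1 of 65 passed (Icam4, named after its values were seen), beside 1.82% of all genes, a share near that of the list. Whether a difference between days was called thus depended on F1-Control Pd7 replicate 1.

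Klf1 is described as 1 of the genes that reached 1 FPKM in F1-Control libraries alone, so that its tests rest on the diet where it is high and support nothing about the list. It fell by 2.03 on the log2 scale from Pd3 to Pd7 in F1-Control (limma Benjamini-Hochberg adjusted p 0.00618) and by 0.02 in F1-HHcy (limma adjusted p 0.982). The difference was 2.01 (SE 0.5802), with a limma adjusted p of 0.143. Without F1-Control Pd7 replicate 1 the difference was 2.64 (limma adjusted p 0.00591), and without F1-HHcy Pd3 replicate 3 it was 2.12 (limma adjusted p 0.0996). At Pd7 Klf1 stood at 3.32, 0.211 and 0.130 FPKM in F1-Control and at 0.0794, 0.121 and 0.420 FPKM in F1-HHcy, so that F1-Control replicate 1 alone was high.

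Among the 10 genes whose log2(FPKM + 1) most resembled the mean of the 9 members over the 18 libraries, of 13421 genes with a mean of at least 1 FPKM, were AI662270 (Pearson r 0.979), Ctse (0.964), Hemgn (0.963), Nfe2 (0.959), Ube2l6 (0.951), Kel (0.951), Hbq1b (0.948) and Trim10 (0.945). The libraries share their groups, and the values describe likeness only. After the mean of each group was subtracted, which leaves the differences among libraries of 1 group, AI662270 (0.958) was again first, and Ctse stood at 0.897. Klf1 (0.880), Ermap (0.876) and Tspo2 (0.860) entered the first 10 in place of Ube2l6, Hbq1b and Trim10. These values within groups rested on F1-Control Pd7 replicate 1, whose mean over the members lay 2.23 above that of its group on the log2 scale. Without it, 1 of the first 10 genes kept its place among the first 10 (AI662270, r 0.888 over 17 libraries), and Ctse stood at 0.647 and Klf1 at 0.675. AI662270 stood at 21.1, 13.4 and 5.76 FPKM in F1-Control and at 0.940, 0.812 and 1.87 FPKM in F1-HHcy at Pd3. Its level at Pd7 was 7.92 FPKM in F1-Control replicate 1 and under 1 FPKM in the other 5 libraries.

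Markers of other blood cells were read in the same libraries, and their part in the erythroid result was not tested. Summed over 13 granulocyte markers, the level was 1146, 302 and 497 FPKM in F1-Control at Pd3 and 9.998, 9.40 and 154 FPKM in F1-HHcy. At Pd7 the sum was 351, 16.4 and 116 FPKM in F1-Control and 2.32, 1.16 and 25.7 FPKM in F1-HHcy. At Pd21 it was 22.2, 10.3 and 14.4 FPKM in F1-Control and 3.67, 8.45 and 3.34 FPKM in F1-HHcy. That difference at Pd21 rested on Ltf, a marker also made by epithelia (log2 fold change -3.32, its direction fixed by the filter). The other markers tested on that day, S100a8 and S100a9, changed by 0.34 and 0.48 and were not called. The libraries high in Slc4a1 were also high in granulocyte markers, with 1 difference: F1-Control Pd7 replicate 3 had 116 FPKM of granulocyte markers and 0.228 FPKM of Slc4a1. The most abundant marker was S100a9, at 537, 147 and 252 FPKM in F1-Control and 5.48, 6.12 and 76.3 FPKM in F1-HHcy at Pd3 (log2 fold change -4.16, limma Benjamini-Hochberg adjusted p 0.0612). At Pd3, 7 of 8 granulocyte markers tested were called lower, beside 4.74% of all genes, and 0 passed the limma adjustment. Without F1-HHcy replicate 3, 6 of 6 tested passed it, beside 7.19% of all genes lower. The F1-HHcy libraries left in that setting held 5.48 and 6.12 FPKM of S100a9 within sums of 9.998 and 9.40 FPKM. Other markers could thus pass the filter through F1-Control libraries alone, which fixes their direction. How many did so was not counted, and nothing is read from the count of 6. At Pd7, S100a8 and S100a9 were the 2 markers tested and both were called lower, beside 7.35% of all genes, with a median log2 fold change of -3.78, or -2.82 without F1-Control replicate 1. Elane, Mmp8, Cxcr2, Csf3r and Ly6g had a mean under 1 FPKM, and none of the 13 was at 0 in all libraries.

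In the plot of summed markers, platelet and megakaryocyte markers overlapped between the diets at Pd3. Their sum over 11 genes was 9.97, 11.4 and 6.29 FPKM in F1-Control at Pd3 and 8.81, 9.06 and 6.17 FPKM in F1-HHcy. At Pd7 the sum was 11.04, 15.1 and 12.8 FPKM in F1-Control and 6.29, 11.3 and 4.76 FPKM in F1-HHcy, with a lower mean in F1-HHcy but with overlap, unlike the globins. At Pd21, where the globins overlapped, the sum was 7.82, 7.52 and 8.27 FPKM in F1-Control and 5.76, 3.71 and 3.49 FPKM in F1-HHcy, with no overlap. Pf4, the most abundant, changed by -0.06 at Pd3 and by -0.98 at Pd7 (limma Benjamini-Hochberg adjusted p 0.0381, all F1-HHcy libraries below all F1-Control ones) and by -0.67 at Pd21 (called, limma adjusted p 0.223), and the other 10 genes had a mean under 1 FPKM. Lymphocyte markers summed to between 0.866 and 7.04 FPKM, with Ms4a1 the most abundant and 7 of 8 genes under a mean of 1 FPKM. Their sum at Pd3 was 2.86, 1.64 and 2.44 FPKM in F1-Control and 1.32, 0.866 and 1.27 FPKM in F1-HHcy. It was thus lower in F1-HHcy with no overlap, as for the globins, whereas the diets overlapped at Pd7 and Pd21. The part of lymphocytes in the erythroid result was not tested. Hepatocyte markers, read because the liver forms red cells around birth, summed to between 0.469 and 7.15 FPKM, with Ahsg the most abundant and Alb and Afp under a mean of 1 FPKM. At Pd3 the hepatocyte sum was 0.973, 0.469 and 0.962 FPKM in F1-Control and 2.15, 2.08 and 2.46 FPKM in F1-HHcy, with no overlap, and its part in the erythroid result was not tested.

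Macrophage markers summed to 118, 74.3 and 72.2 FPKM in F1-Control and 94.4, 108 and 84.0 FPKM in F1-HHcy at Pd3, with Lyz2 the most abundant and 0 of 8 called by limma at an unadjusted p under 0.05 with the fold limit. At Pd7 the sum was 141, 123 and 97.1 FPKM in F1-Control and 80.2, 85.4 and 60.6 FPKM in F1-HHcy, with no overlap, and 3 of 8 were called lower (C1qa, C1qc and Lyz2), beside 7.35% of all genes, and 0 after limma adjustment. Macrophage markers thus moved with the globins at Pd7 and overlapped between the diets at Pd3, and their part in the result was not tested. Endothelial markers went the other way from the globins at Pd3. Their sum over 10 genes was 76.0, 100.1 and 101 FPKM in F1-Control and 177, 152 and 119 FPKM in F1-HHcy, with Egfl7 the most abundant, and 6 of 10 were called higher, beside 5.0% of all genes. After limma adjustment 1 of 10 was higher, and 8 of 10 without F1-HHcy replicate 3, beside 6.56% of all genes. The diets did not overlap in this sum, so at Pd3 vessel transcripts were lower in F1-Control, the diet with more globin. Within F1-HHcy the order differed, as replicate 3 had the lowest globin sum and also the lowest endothelial sum. At Pd7 the endothelial sum was 164, 152 and 163 FPKM against 198, 206 and 173 FPKM, and 2 of 10 genes were called higher, beside 9.06% of all genes. The part of vessel content in the erythroid result was not tested. Markers of oocytes (Zp3 the most abundant), granulosa cells (Inha) and stroma (Dcn) were present in every library, with 20 of 20 genes at a mean of 1 FPKM or more. They too differed between the diets, and their part in the erythroid result was not tested. At Pd3 the sum over 6 stroma and theca markers was 277, 377 and 339 FPKM in F1-Control and 635, 658 and 501 FPKM in F1-HHcy, with 3 of 4 tested called higher. Of the granulosa markers tested at Pd3, 2 of 5 were called higher (Inha and Amh), and their sum of 271, 298 and 255 FPKM against 500, 342 and 337 FPKM did not overlap. The oocyte sum was 538, 583 and 640 FPKM against 711, 864 and 737 FPKM, with 2 of 8 markers called higher and 3 lower. Without F1-HHcy replicate 3 the oocyte markers called were 2 higher and 6 lower. At Pd7 the oocyte sum was 715, 1190 and 946 FPKM against 506, 429 and 761 FPKM, and 7 of 8 were called lower, or 5 of 8 without F1-Control replicate 1. The granulosa sum at Pd7 was 282, 268 and 497 FPKM against 517, 501 and 788 FPKM, with no overlap. Of the granulosa markers, 3 of 6 were called higher on that day, or 2 of 6 without F1-Control replicate 1. Beside these ovarian counts, 5.0% of all genes were called higher and 4.74% lower at Pd3, and 9.06% higher and 7.35% lower at Pd7. Without F1-Control replicate 1 the shares at Pd7 were 11.6% higher and 7.66% lower. Without F1-HHcy replicate 3, 920 of all 13049 genes were called higher and 1028 lower at Pd3.

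**Figure D4:**
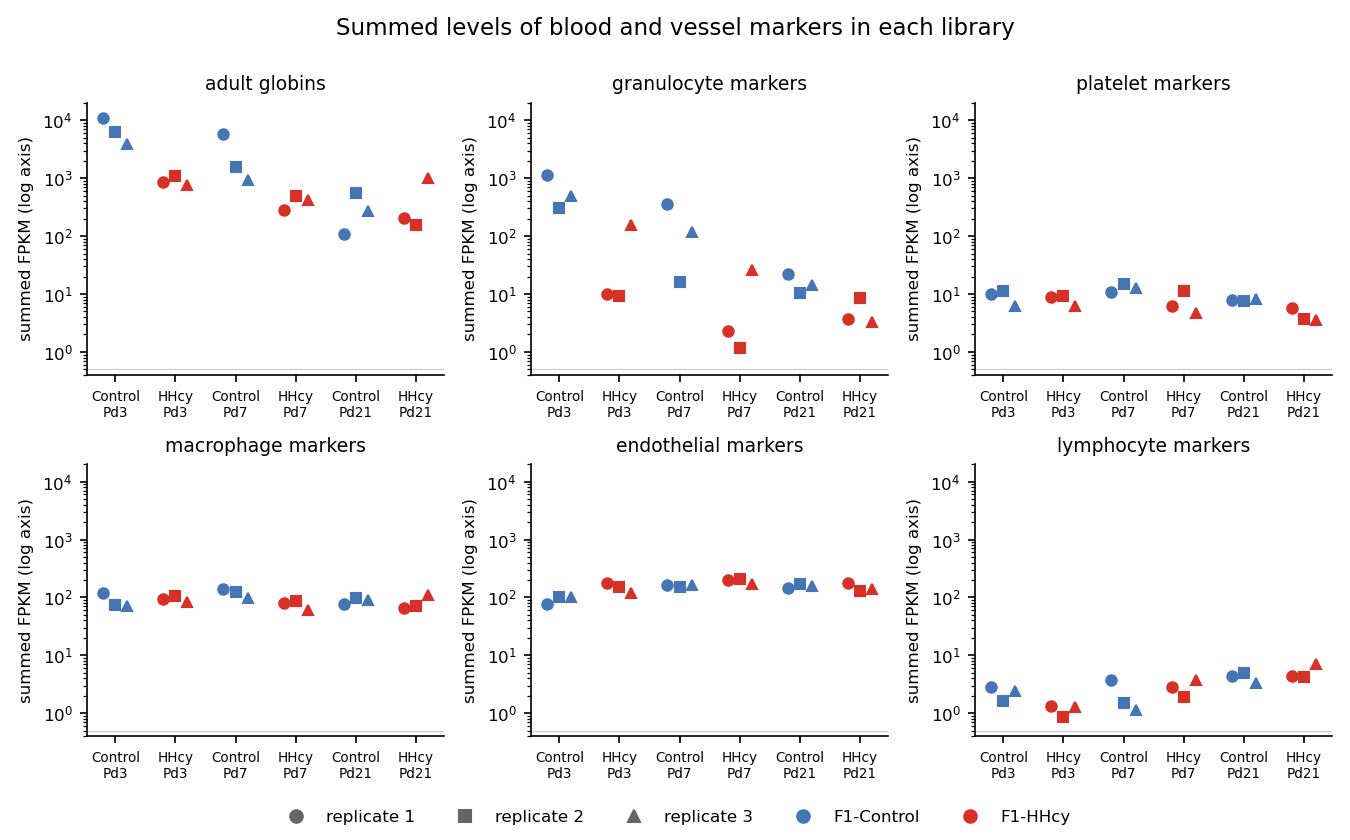
Summed FPKM of the adult globins and of marker genes of other cell types (vertical axis, log axis) in each library by day and diet (horizontal axis), where each point is a library. The granulocyte sum runs from 1146 FPKM in F1-Control Pd3 replicate 1 to 1.16 FPKM in F1-HHcy Pd7 replicate 2, while the platelet sum stays between 3.49 and 15.1 FPKM.

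Genes that clear heme and hemoglobin were read beside the globins. At Pd3, 2 of 5 tested were called lower, beside 4.74% of all genes, and 0 after limma adjustment: Slc40a1, the iron exporter, at 71.8, 80.5 and 61.4 against 40.1, 60.3 and 37.8 FPKM, and Hp, the hemoglobin-binding haptoglobin, at 3.00, 1.99 and 2.99 against 0.554, 0.747 and 2.55 FPKM. Without F1-HHcy replicate 3, Hp passed adjustment (log2 fold change -1.14, limma adjusted p 0.00523). In that setting Hp reached 1 FPKM in F1-Control libraries alone, so its way through the filter fixed the direction. At Pd7 Hmox1, which breaks down heme, stood at 45.0, 63.1 and 60.1 FPKM in F1-Control and at 32.5, 25.3 and 23.4 FPKM in F1-HHcy (log2 fold change -1.02, limma Benjamini-Hochberg adjusted p 0.00848), the 1 gene of 5 called on that day, beside 7.35% of all genes lower. Leaving out F1-Control replicate 1 gave -1.17 for Hmox1. At Pd21 Hp stood at 61.1, 20.6 and 31.3 FPKM in F1-Control and at 2.60, 1.66 and 3.96 FPKM in F1-HHcy (log2 fold change -3.28, limma adjusted p 0.00480), with globins that overlapped between the diets. The Hp difference at Pd21 thus came without a globin difference.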

How the data were processed

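The authors deposited 1 table of normalized values per library, poly-A selected and strand-specific. The unit is not named in the files; the deposited values behave as FPKM, since 27291 of 27294 genes resolved into whole fragments within 0.1 fragments in every library, which also gave the depth. The processing notes of the authors name FastQC 0.11.9, Trimmomatic 0.39, STAR 2.7.9a, featureCounts 2.0.1 and DESeq2 1.36.0 with GRCm38; the treatment of reads that map to several places is not given in the sources used here.

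Values were set to log2(FPKM + 1), and genes that reached 1 FPKM in 3 or more of a day's 6 libraries were fitted with limma 3.58.1 in R 4.3.3 (trend on the mean, two-sided, Benjamini-Hochberg adjustment over all genes tested). Age and interaction contrasts used 1 model of 18 libraries and the 14607 genes that reached 1 FPKM in 3 or more of them. The fit was tested on simulated data. The 9 members and the gene lists were chosen with earlier results of these data known. Genes named outside the members were the other globins, the 2 most abundant genes of a list, up to 3 called genes of a list and day with the smallest p, and the 10 genes most like the members. Ratios to globin used the summed FPKM of Hba-a1, Hba-a2, Hbb-bs and Hbb-bt. Promoters came from RefSeq, and the motifs were chosen after the sequences were first read. Fragment counts carry counting error only, and PCR copies are not independent molecules. Alternatives tried were the pseudocount, the filter, the model, a replicate block, other scalings, adjusted p-values and leaving out each library. Reads, isoforms and alleles were not analysed here.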

Additional observations from a re-analysis of the deposited data

Results flagged for a closer look

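In 2 ovarian marker genes the diet effect differed between Pd3 and Pd7 by the limma interaction test over all genes, and the cause was not tested. The diet effect on the stromal marker Dcn was -1.71 on the log2 scale at Pd7 relative to Pd3 (limma Benjamini-Hochberg adjusted p 0.0445). Dcn stood at 175, 239 and 176 FPKM in F1-Control and 309, 429.6 and 316 FPKM in F1-HHcy at Pd3, and at 503, 585 and 374 against 316, 330.0 and 169 FPKM at Pd7. The other 5 stroma and theca markers were not lower with it: at Pd7 they were above 0 in log2 fold change, and 3 of them were called higher. In the interaction, Pdgfra (-1.50) and Col1a1 (-0.33) went the same way as Dcn. Star (0.92), Cyp11a1 (2.45) and Cyp17a1 (3.70) went the other way, and none of the 5 passed adjustment. For the oocyte marker Zp3, the difference was -2.14 (limma adjusted p 0.0331), with higher F1-HHcy values at Pd3 and lower ones at Pd7 in all 3 libraries of each day. At Pd3 6 of 8 oocyte markers went the other way from Zp3, with 3 called lower, or 6 without F1-HHcy replicate 3. At Pd7 7 of 8 were called lower, Zp3 among them. Beside these marker counts, 4.74% of all genes were called lower at Pd3, and 7.35% lower and 9.06% higher at Pd7. In the interaction, Gdf9 (-1.62), Figla (-1.47), Sohlh1 (-1.40) and Ddx4 (-0.59) went the same way as Zp3. Dazl (0.60) went the other way, and none of these passed adjustment with all libraries. Without F1-Control Pd7 replicate 1 the difference was -1.68 for Dcn (limma adjusted p 0.0587) and -2.37 for Zp3 (limma adjusted p 0.0134). Without F1-HHcy Pd3 replicate 3 it was -1.78 for Dcn (limma adjusted p 0.0248) and -2.32 for Zp3 (limma adjusted p 0.0103). In that setting Amh (-2.99, limma adjusted p 0.0258) and Gdf9 (-2.01, limma adjusted p 0.0359) passed as well.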

How the results depend on the processing

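All 27 member values (9 genes on 3 days) kept their size within the spread between replicates under both scalings (the filter, the 18-library model and the replicate block cannot change a difference of group means); with a pseudocount of 0.1, 3 moved: Slc4a1 and Cldn13 at Pd3 (-6.35 and -6.48) and Slc4a1 at Pd21 (0.43), all low in at least 1 diet. At Pd7 the same pseudocount took Slc4a1 from -1.84 to -3.50 and Cldn13 from -1.14 to -2.31, a large move that stayed within a spread that 1 library made wide. The pseudocount sets the fold of such genes, and depth limits Slc4a1 and Cldn13 wherever they rest on a few fragments. Within the pairs of globins the split is uncertain. With 3 libraries a group, 1 library can decide a count.

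Counts that differed from the reported ones by over 1.5 times follow; the cause was not tested unless given. Requiring an adjusted p under 0.05, a stricter rule, left 210 genes higher and 167 lower at Pd3 (reported 664 and 629), 750 higher and 2 erythroid genes lower at Pd7 (1205 and 8), and 0 higher, 298 lower and 0 erythroid genes lower at Pd21 (11, 675 and 1; limma, unadjusted). Totals without hemoglobin and mitochondrial genes moved the median of all genes by 0.106 (log2) at Pd7 and gave 2 erythroid genes higher and 4 lower there (1 and 8). At Pd21 the genes called higher, reported as 11, were 17 with a pseudocount of 0.1, 5 with no filter, 22 in the 18-library model and 32 with median-ratio scaling; erythroid genes called lower were 2 with no filter and 2 in the 18-library model (1).

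A replicate block gave 17 genes higher at Pd21 (11). Replicate numbers showed no pairing, with correlations of the same number across diets from -0.338 to 0.0872.

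Leaving out 1 library gave these ranges. At Pd3, all genes lower 424 to 1028 and erythroid lower 23 to 41. At Pd7, all genes higher 716 to 1550, erythroid higher 1 to 2 and lower 4 to 10. At Pd21, all genes higher 4 to 105 and lower 359 to 903, erythroid higher 0 to 1 and lower 0 to 1. The next alternatives were chosen after seeing the data. Among genes at 1 FPKM in all 6 libraries compared, 19 erythroid genes were lower at Pd3 (41), 0 were higher at Pd7 (1) and 19 were lower by age in F1-Control (42), where 614 of all genes were higher (987). By age in F1-HHcy, 0 erythroid genes (1) and 497 of all genes (841) were higher among them. Without F1-Control Pd7 replicate 1, 1 of the 10 genes most like the members within groups stayed among the first 10. Without F1-Control Pd7 replicate 1, the age effect in F1-Control gave 1525 genes lower (1007) and 1 erythroid gene higher (0), and the interaction 58 higher (15), 63 lower (45) and 23 erythroid higher (0). Without F1-HHcy Pd3 replicate 3, the age effect in F1-HHcy gave 511 higher (841), 568 lower (881) and 0 erythroid higher (1), and the interaction 50 higher (15), 214 lower (45) and 1 erythroid higher (0).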

Other observations

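Ltf, a granulocyte marker also made by epithelia, stood at 18.4, 5.20 and 10.8 FPKM in F1-Control and at 0.0809, 0.104 and 0.204 FPKM in F1-HHcy at Pd21 (log2 fold change -3.32, limma Benjamini-Hochberg adjusted p 0.00406). It reached 1 FPKM in F1-Control libraries alone, so its way through the filter fixed the direction. S100a8 and S100a9 stayed between 0.392 and 3.84 FPKM in the same 6 libraries of Pd21. Ltf and Hp were thus high in the same 3 libraries without the other granulocyte markers.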
